A study of Mus musculus with 29 samples.

Results

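The response of tibialis anterior (TA) muscle to a 24 h fast was followed in mice whose muscle fibers lack p110β, a catalytic subunit of class I phosphoinositide 3-kinase (PI3K). The comparison was chosen by its labels, 4 libraries titled Fast.p110beta.KO against 4 titled Fed.p110beta.KO, which make 8 of the 29 libraries of the series. It was taken up with the knowledge that it gives the largest number of fasting calls among the genotypes sequenced, so that rank is a description and not a result. In all, 12249 of 48023 genes in the deposited table had enough reads to be tested.

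The study crossed mice carrying floxed p110α or floxed p110β alleles with mice carrying Cre recombinase under the human α-skeletal actin (HSA) promoter, which is active in muscle fibers and not in the other cells of the tissue, to make M-p110αKO and M-p110βKO mice. RNA-Seq was run on TA muscle of male mice labelled C57BL/6J and aged 2–3 months, 1 library per mouse. Fed M-p110βKO mice (p110beta.KO, n = 4) were randomly fed, and fasted M-p110βKO mice (p110beta.KO, n = 4) were moved to a new cage without food. The floxed controls of the line (p110beta.WT), which carry the floxed alleles and no Cre, were sequenced fed (n = 3) and fasted (n = 3), and M-p110αKO mice (p110alpha.KO) fed (n = 4) and fasted (n = 3). Floxed controls of the p110α line (p110alpha.WT) were sequenced fed (n = 4) and fasted (n = 4). The p110β line was less purely of the C57BL/6 background than the p110α line by the study's own genome scan, so a comparison between lines compares backgrounds too. Nothing in the sources says that the mice of a group came from separate litters, so the p-values measure the spread between these mice.

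When food is withdrawn, insulin falls and glucocorticoids rise. In muscle fibers, less PI3K and AKT activity leaves FoxO transcription factors in the nucleus, where they turn on ubiquitin ligases and autophagy genes that break down muscle protein to amino acids. Fatty acids released from fat tissue replace glucose as fuel, act on PPAR nuclear receptors, and are oxidised in mitochondria, while pyruvate dehydrogenase kinase holds glucose carbon back from oxidation.

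Assigned reads per library were 6290455–7582764 in fed and 6203710–8599227 in fasted M-p110βKO, and mitochondrially encoded genes took 9.73–11.2% and 10.7–12.2% of them. On the first principal component of the 14 libraries of the line (47.46% of variance) the fed libraries of both genotypes lay between -39.11 and -20.7 and the fasted ones between 21.79 and 41.71. Fasted M-p110βKO library 27 stood apart on the third component (37.83, the other 13 libraries -11.45 to 10.31). Fasted controls 23 and 24 stood apart on the second (-30.22 and -34.82, the others -6.99 to 19.0) and held more adipocyte transcripts. Adipoq, a fat cell hormone, was at 19.2 and 24.8 CPM (reads per 1000000 assigned) there and at 1.87, 0.0, 1.22 and 0.0 CPM in fed and 0.321, 0.124, 0.0 and 0.159 CPM in fasted M-p110βKO. Pik3cb, which encodes p110β, was at 9.68, 10.2, 9.75 and 11.8 CPM in fed and 10.3, 9.39, 9.63 and 9.73 CPM in fasted M-p110βKO. Its counts are summed over all exons, so they do not check the deletion of exon 2, and reads from cells other than fibers add to them. Pik3ca, which encodes p110α, was at 126 ± 8.88 CPM (mean ± SD, n = 4) fed and 140.3 ± 10.8 CPM fasted. Neither gene passed the test for fasting (adjusted p = 0.602 and 0.266).

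After 24 h without food 2328 genes rose and 2315 fell in M-p110βKO muscle, by edgeR's quasi-likelihood F test with Benjamini-Hochberg adjusted p under 0.05. That is 19.0% and 18.9% of the genes tested, the background against which each gene group below is read, and the median log2 fold change over all genes tested was -0.02. The fed and fasted CPM did not overlap for 4187 genes, 34.2% of those tested, and for 3728 of the 4643 called genes (80.3%). Many changes were small. Under 1.5-fold lay 998 of the rises and 866 of the falls, while 554 rises and 631 falls were at least 2-fold and 114 rises and 100 falls at least 4-fold. A test against a fold of 1.5 in place of none left 945 genes. The genes that rose took 16.4 ± 0.566% (SD, n = 4) of counts in fed and 27.0 ± 1.4% in fasted muscle, and those that fell 29.3 ± 1.17% and 18.5 ± 1.15%.

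**Figure D1:**
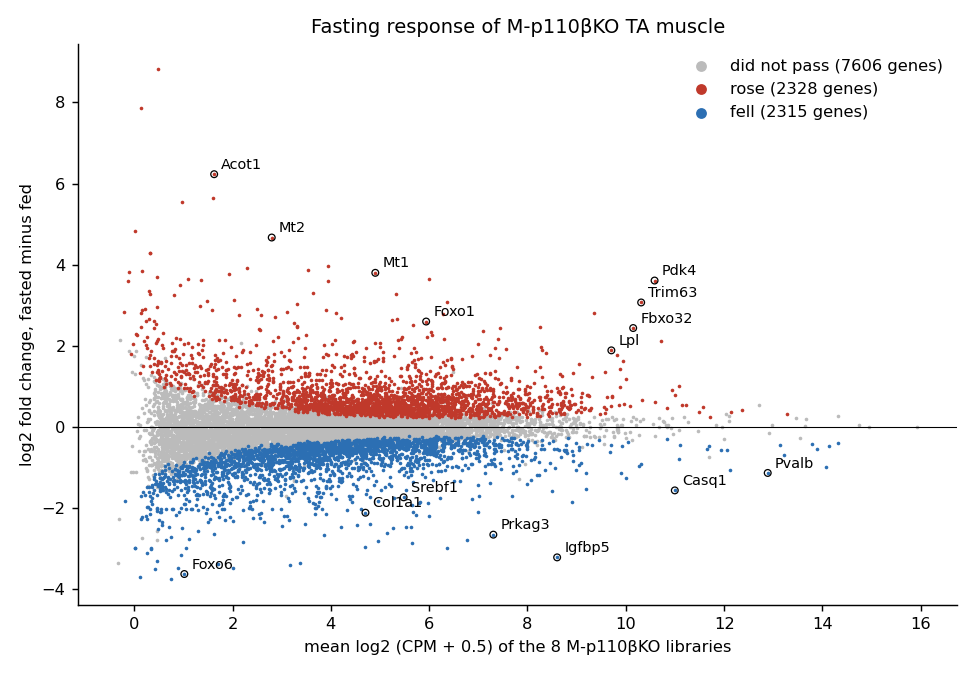
Log2 fold change on fasting in M-p110βKO TA muscle (fasted minus fed, vertical axis) against the mean log2 CPM of the 8 libraries (horizontal axis), 1 point per gene tested, with the 2328 genes that rose in red, the 2315 that fell in blue and the rest in grey. Acot1 (6.23), Mt2 (4.67) and Pdk4 (3.61) lie at the top, and Igfbp5 (-3.21) and Foxo6 (-3.62) at the bottom.

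The largest rises were taken among genes whose log2 CPM averaged 1 or more and whose groups did not overlap. Acot1, a cytosolic thioesterase that frees fatty acids from coenzyme A, was at 0.0, 0.288, 0.271 and 0.137 CPM in the fed libraries and 21.3, 7.41, 14.0 and 16.6 CPM in the fasted ones. Its log2 fold change was 6.23 (SE 0.452, adjusted p = 1.52e-08), a value that rests on few fed reads. Acot2, its mitochondrial relative, was at 14.1, 20.9, 17.1 and 20.0 CPM fed and 211, 195, 268 and 225 CPM fasted. That fed and fasted libraries are apart in both genes was required by the rule. Since the genes are near-identical copies, reads may be split between them. The rise of Acot2 was 3.64 (SE 0.166, adjusted p = 3.55e-11). The metallothioneins, which bind zinc and are induced by glucocorticoids, rose as a pair. Mt1 was at 9.06, 5.48, 10.2 and 6.84 CPM fed and 115, 84.9, 117 and 124 CPM fasted (log2 fold change 3.80, SE 0.166, adjusted p = 2.05e-11). Mt2 was at 0.937, 0.865, 1.35 and 1.37 and 28.4, 29.7, 27.3 and 32.7 CPM (log2 fold change 4.67, SE 0.19, adjusted p = 8.91e-12). In both genes every fasted library was several times above every fed one, and the rule required that the groups lie apart. Csrp3 and Ankrd2, proteins of the Z-disc and titin that respond to stretch, rose from 4.44 ± 2.74 to 54.0 ± 7.49 CPM and from 14.0 ± 9.13 to 137 ± 35.9 CPM. The other genes that this rule named among rises were Doc2b (5.65), Il6ra, the interleukin-6 receptor (3.98), Hif3a (3.93), Cep85l (3.87), Cdhr3 (3.78), Lcn2, a siderophore-binding lipocalin (3.66), BC048679 (3.62), Pdk4 (3.61) and Slc25a34, a mitochondrial carrier (3.31). Hif3a stood at 4.55 without fed library 20.

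The largest falls were taken by the same rule, which required groups that do not overlap. Among them, Igfbp5, a binding protein for insulin-like growth factors, had the lowest adjusted p of all genes. It was at 1182, 1302, 1128 and 1126 CPM in fed and 128, 144, 125 and 114 CPM in fasted libraries (log2 fold change -3.21, SE 0.117, adjusted p = 2.35e-12). Igf1, the growth factor itself, fell too, from 11.4 ± 3.84 to 2.66 ± 0.704 CPM (-2.12, adjusted p = 1.13e-05). Nrep fell from 235 ± 5.19 to 29.8 ± 10.5 CPM, Kcng4, a modifier subunit of voltage-gated potassium channels, from 70.8 ± 13.0 to 9.1 ± 1.01 CPM, Plcd4, a phospholipase C, from 136 ± 7.53 to 18.8 ± 5.77 CPM, and Ky, a muscle protein lost in kyphoscoliosis mice, from 304 ± 21.6 to 43.7 ± 29.1 CPM. The remaining falls on the rule's list were Foxo6 (-3.62), D430041D05Rik (-3.47), Fam78a (-3.39), Cited4 (-3.37), Lrtm2 (-3.34), Fras1 (-2.99), Fmod (-2.82), Ighm, an immunoglobulin heavy chain (-2.81), Irx3os (-2.75) and Sec14l5 (-2.67). The sizes of some of these falls depended on 1 library. Without fasted library 27 the changes were -3.37 for Ky, -3.98 for Fam78a, -4.13 for Lrtm2, -5.37 for Fras1 and -3.68 for Fmod, without fasted library 28 -4.08 for Cited4, and without fasted library 26 -4.21 for Foxo6. In absolute CPM, which also grows with transcript length, the largest rises of mean level were those of Pdk4, Trim63, Tacc2, Fbxo32, Ttn, Myot, Pde4dip and Retreg1, and the largest falls those of Tpm1, Pvalb, Aldoa, Eno3, Acta1, Tnni2, Tnnt3 and Mylpf. Retreg1, a receptor for autophagy of the endoplasmic reticulum, was at 224, 275, 254 and 240.2 CPM fed and 1949, 1646, 1555 and 1837 CPM fasted (log2 fold change 2.81, SE 0.14, adjusted p = 1.33e-10).

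**Figure D2:**
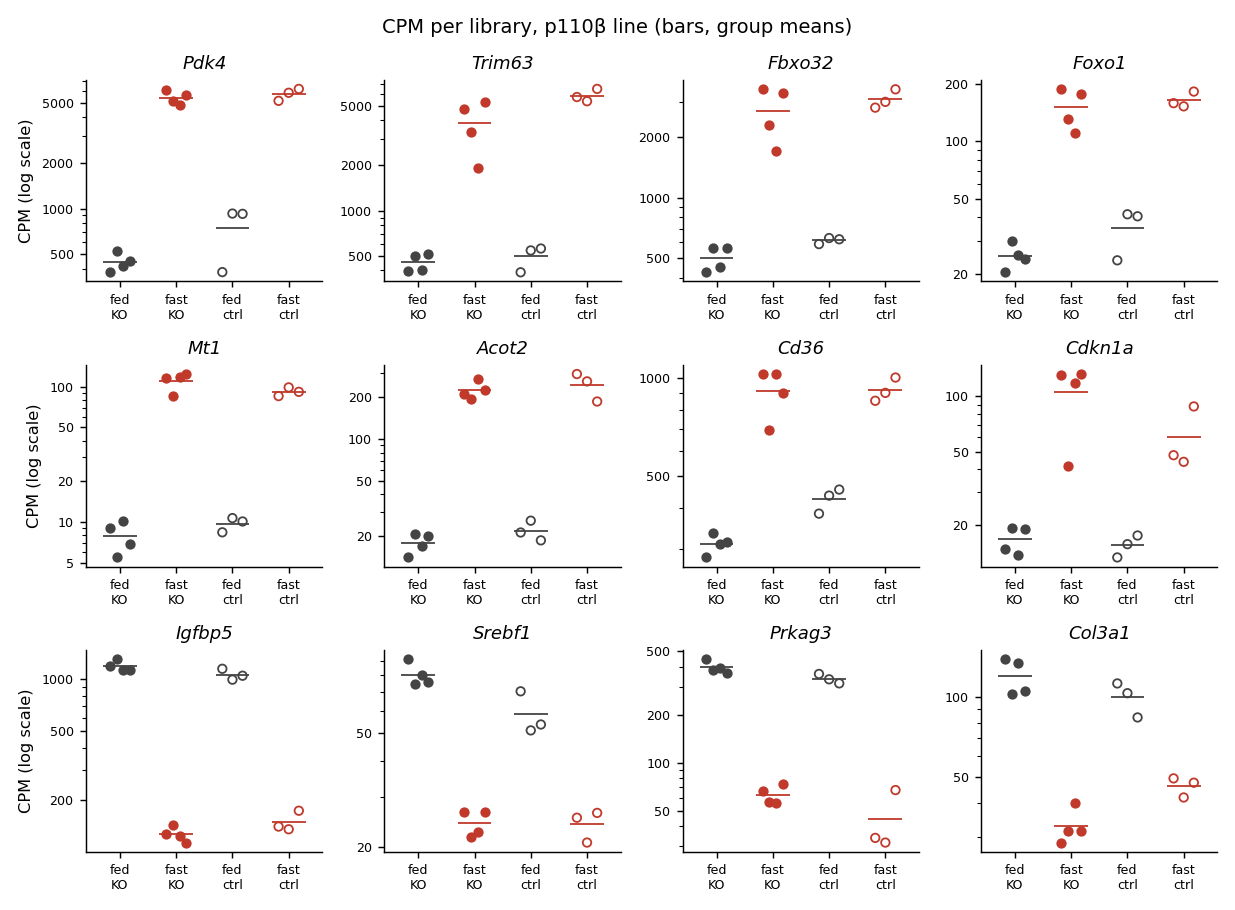
CPM of 12 genes in each library of the p110β line (vertical axes, log scale), with fed and fasted M-p110βKO (n = 4 each) as filled points, fed and fasted floxed controls (n = 3 each) as open points, and group means as horizontal bars. Pdk4, Trim63, Fbxo32, Foxo1, Mt1, Acot2, Cd36 and Cdkn1a are higher and Igfbp5, Srebf1, Prkag3 and Col3a1 lower in every fasted than in every fed M-p110βKO library.

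The ubiquitin ligases of muscle atrophy were led by Trim63 (MuRF1) and Fbxo32 (atrogin-1), which tag muscle proteins for the proteasome. Trim63 was at 399.8, 500.4, 403 and 518 CPM in fed and 4730.0, 3357, 1931 and 5299 CPM in fasted M-p110βKO. Fbxo32 was at 425, 563, 453 and 559 CPM fed and 3471, 2301, 1712 and 3330.5 CPM fasted. For both, the fasted libraries lay far above the fed ones, with log2 fold changes of 3.07 (SE 0.235, adjusted p = 2.72e-08) and 2.44 (SE 0.182, adjusted p = 2.16e-08). Of 15 ligases tested 8 rose and 4 fell (median 0.32). Fbxo21 (1.07), Ubr2 (0.91) and Fbxo30 (0.82) were other rises. The falls were those of Stub1 (-0.51), Trim32 (-0.48), Trim55, which encodes MuRF2 (-0.48), and Mul1 (-0.38). Fbxo40 (0.22, adjusted p = 0.119) and Traf6 (0.11, adjusted p = 0.465) did not pass. Of the genes for ubiquitin and for enzymes that handle it, 11 of 17 rose and 0 fell (median 0.55), with Zfand5, a ubiquitin-binding protein of muscle atrophy, at 1.30 (adjusted p = 3.85e-06). Proteasome subunits rose in 21 of 44 and fell in 4, and their changes were small (median 0.24). Against a fold of 1.5, 2 of these 21 rises remained called.

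Autophagy genes rose more often than they fell. Of 44 tested 16 rose and 5 fell (median 0.11). Among the starters of autophagy, the kinase Ulk1 rose from 95.2 ± 6.66 to 240.4 ± 48.8 CPM (1.34, adjusted p = 6.77e-07), and its partners Rb1cc1 (0.81) and Atg13 (0.70) rose with it. Bnip3, a mitophagy receptor, was at 173, 211, 194 and 146 CPM fed and 815, 428, 503 and 819 CPM fasted (1.82, SE 0.202, adjusted p = 2.13e-06). Gabarapl1, which coats the autophagosome, rose by 1.59, and the cargo receptors Sqstm1 (0.74), Tax1bp1 (0.82) and Nbr1 (0.65) rose less. The conjugation enzymes Atg3 (0.07), Atg5 (-0.08) and Atg7 (-0.15) did not pass (adjusted p = 0.691, 0.596 and 0.386), and Atg4d (-0.75), Atg12 (-0.32) and the mitophagy receptor Fundc1 (-0.34) fell. Of 67 lysosomal genes 13 rose (19.4%) and 15 fell (22.4%), both near the background of 19.0% and 18.9% (median -0.08). Npc1, the cholesterol exporter of the lysosome, rose from 83.7 ± 5.7 to 321 ± 77.0 CPM (1.94, adjusted p = 5.07e-08), and the protease Ctsl (0.98), the membrane protein Lamp2 (0.99) and the proton pump subunit Atp6v1h (1.03) rose by about 1. Tcirg1, a proton pump subunit of osteoclasts and immune cells (-0.80), Ctss, a protease of antigen-presenting cells (-1.55), and the sulfatase Sgsh (-1.48) fell. Tfeb, a master regulator of lysosomal genes, fell by 0.42 (adjusted p = 0.0127).

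Genes of the insulin pathway rose near its top. The receptor Insr went from 75.7 ± 6.75 to 152 ± 21.4 CPM (1.01, adjusted p = 6.73e-06) and Igf1r by 0.96. Irs2, an adaptor of the receptor, was at 24.8, 30.4, 26.1 and 25.3 CPM fed and 80.0, 154, 86.1 and 91.4 CPM fasted. Pik3r1, the p85α regulatory subunit that pairs with p110α and p110β, was at 20.9, 21.5, 22.6 and 22.6 CPM fed and 123, 44.0, 57.1 and 118 CPM fasted. Neither gene had a fed library that reached the fasted range, and the log2 fold changes were 1.95 (SE 0.203, adjusted p = 1.08e-06) and 1.96 (SE 0.246, adjusted p = 8.08e-06). Irs1 (0.18, adjusted p = 0.499), Akt1 (0.28, adjusted p = 0.232) and Akt2 (0.02, adjusted p = 0.878) did not pass. The regulatory subunits Pik3r2 (-0.40) and Pik3r3 (-0.59) and the catalytic subunit Pik3cd of white blood cells (-1.34) fell. Tbc1d4 and Tbc1d1, AKT substrates that hold glucose transporters inside the cell, rose by 1.73 and 1.37. Over the list, 10 of 26 members rose and 4 fell (median 0.27).

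Of the FoxO factors, Foxo1 was at 20.5, 29.9, 25.3 and 24.2 CPM fed and 189, 131, 110.2 and 178 CPM fasted, with no overlap (2.60, SE 0.188, adjusted p = 1.52e-08). Foxo3 rose from 48.6 ± 5.36 to 155 ± 31.7 CPM (1.67, adjusted p = 3.27e-07), Foxo4 was at 119 ± 17.2 and 123 ± 13.9 CPM (adjusted p = 0.78), and Foxo6 fell from 4.6 ± 0.753 to 0.362 ± 0.336 CPM (-3.62, adjusted p = 4.52e-06). Among brakes on growth, Sesn1 (2.52), Ddit4 (REDD1, 2.05) and Eif4ebp1, the repressor of cap-dependent translation (2.07), rose about 4-fold or more, whereas Ddit4l (REDD2, -1.17) and Sesn3 (-0.57) fell. The mTOR list had 8 rises and 3 falls among 24 members (median 0.30). Mstn (myostatin), a brake on muscle mass, rose from 38.4 ± 6.71 to 67.0 ± 17.7 CPM (0.80, adjusted p = 0.0128), while Gdf11, its close relative, fell by 2.33 and Fst (follistatin), which binds both, by 1.02. Gdf11 stood at -2.99 without fasted library 27, and Foxo6 at -4.21 without fasted library 26.

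Promoters of genes that rose were read for the letters of binding motifs, in windows of 250 bases before to 50 after each start site from RefSeq (GRCm38.p6), which matched 9286 of the genes tested with 11961 windows. The FoxO motif (TGTTTAC or its reverse complement GTAAACA) was in 62 of 2298 windows of genes that rose (2.7%), in 1.96% of windows of genes that fell and in 2.57% of all. The E-box CACGTG, a palindrome read by clock and TFE proteins, was in 10.8%, 8.7% and 10.1%, and the palindromic cyclic AMP element TGACGTCA in 3.31%, 2.78% and 3.07%. The shares of the genes that rose were thus close to those of all windows for each motif. The 3 windows that follow belong to the genes of lowest adjusted p, among the largest rises and leading list members, that rose and hold a motif. They show Trim63 (FoxO motif on the given strand, -194 bases from the start), Cdhr3 (E-box, -93) and Il6ra (E-box, -24). Capitals mark the motif, and each window is written 5′ to 3′ on the strand of the gene. A match is a description and not a shown binding site.
Trim63, chr4:134314870-134315169, + strand: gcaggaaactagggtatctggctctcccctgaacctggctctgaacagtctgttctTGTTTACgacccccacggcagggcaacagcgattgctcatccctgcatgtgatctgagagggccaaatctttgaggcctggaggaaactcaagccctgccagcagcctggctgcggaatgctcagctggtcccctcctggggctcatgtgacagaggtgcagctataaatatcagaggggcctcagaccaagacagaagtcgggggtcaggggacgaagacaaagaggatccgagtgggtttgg
Cdhr3, chr12:33092826-33093125, - strand: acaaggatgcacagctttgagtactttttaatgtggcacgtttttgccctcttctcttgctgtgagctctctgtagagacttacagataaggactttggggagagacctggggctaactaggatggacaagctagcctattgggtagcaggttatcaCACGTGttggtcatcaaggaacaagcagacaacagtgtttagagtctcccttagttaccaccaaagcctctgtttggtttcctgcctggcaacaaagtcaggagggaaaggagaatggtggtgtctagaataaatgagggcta
Il6ra, chr3:89913147-89913446, - strand: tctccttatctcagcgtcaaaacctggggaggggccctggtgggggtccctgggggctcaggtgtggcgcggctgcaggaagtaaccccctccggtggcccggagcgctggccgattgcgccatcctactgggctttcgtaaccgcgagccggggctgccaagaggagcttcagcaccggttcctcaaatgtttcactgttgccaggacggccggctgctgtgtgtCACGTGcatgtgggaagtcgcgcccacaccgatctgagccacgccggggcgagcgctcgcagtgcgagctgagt

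Genes that handle fat rose as a group. Of 27 genes known to respond to PPAR factors in fasting, 22 of 25 tested rose and 0 fell (median 1.14). Pdk4, which switches off pyruvate dehydrogenase, was at 379, 521, 416 and 449 CPM in fed and 6073, 5112, 4812 and 5595 CPM in fasted libraries. The lowest fasted library held several times the reads of the highest fed one (3.61, SE 0.219, adjusted p = 2.19e-09). Ucp3, a mitochondrial uncoupling protein, rose by 1.89, Angptl4, an inhibitor of lipoprotein lipase, by 2.77 and Plin5, a lipid droplet coat that contacts mitochondria, by 2.68. Plin2 (-0.33, adjusted p = 0.144), Cpt1b (0.15, adjusted p = 0.646) and Pex11a (-0.04, adjusted p = 0.846) were the tested members that did not pass. Fgf21 and Vnn1 had too few reads to be tested.

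Of 38 genes for uptake and oxidation of fatty acids, 27 rose and 0 fell (median 0.69). At the cell surface, Lpl, the lipase that frees fatty acids from lipoproteins, was at 491, 399, 564 and 339.9 CPM fed and 1965, 878, 1945 and 1866 CPM fasted (1.89, adjusted p = 7.6e-06). Cd36, the fatty acid transporter, was at 283, 337, 310.2 and 315 CPM fed and 1027, 695, 1025 and 896 CPM fasted (1.55, adjusted p = 4.63e-08). Both groups of libraries were again apart in each gene. In the carnitine shuttle Slc25a20 (0.95), Cpt1a (0.87) and Cpt2 (0.77) rose, and in the β-oxidation cycle Eci2 (1.31), Acadl (1.24), Hadhb (1.19) and Acaa2 (0.98). Of the acyl-CoA synthetases Acsl1 rose (0.94), while Acsl3, Acsl4, Acsl5 and Acsl6 lay between -0.40 and -0.09 and did not pass. In the lipid droplet list, with 10 rises and 4 falls of 21, the coats Plin4 (2.46) and Plin3 (1.76), the triglyceride-forming enzyme Dgat2 (1.96) and the lipase Pnpla2 (1.49) rose. G0s2, an inhibitor of that lipase, fell by 1.21 (adjusted p = 0.0267), and Hilpda, another, by 0.91.

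Genes for making lipids were read as 2 lists. Srebf1, the factor that drives fatty acid synthesis under insulin, was at 91.0, 74.6, 80.1 and 75.8 CPM fed and 26.5, 21.6, 22.6 and 26.6 CPM fasted. All 4 fasted libraries were below all fed ones (-1.73, SE 0.125, adjusted p = 1.52e-08). Of 21 lipogenic genes 5 fell (23.8%, near the background of 18.9%) and 2 rose (median -0.32). Fads1 (-0.95), Fads2 (-1.82), Scd2 (-0.81) and Mlxipl, a glucose-sensing factor (-0.67), were the other falls, and Acacb, whose product malonyl-CoA blocks carnitine palmitoyltransferase, rose by 0.99 and Acss2, which makes acetyl-CoA from acetate, by 0.66. Fads2 stood at -2.55 without fasted library 26. Fasn (-0.33, adjusted p = 0.185) and Scd1 (-1.69, adjusted p = 0.082) did not pass. In cholesterol synthesis and uptake 10 of 25 fell, Dhcr7 (-1.35), Mvk (-1.06) and the regulator Srebf2 (-0.77) among them, and Mvd (1.23) and Fdft1 (0.77) rose.

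Glycolytic genes fell more often than they rose. Of 30 genes 7 rose and 10 fell (median -0.18). Pfkfb3, which makes the activator of phosphofructokinase, fell from 425 ± 48.8 to 161 ± 72.1 CPM (-1.40, adjusted p = 0.0458), and Pgam2, the muscle phosphoglycerate mutase, from 1624 ± 218 to 683 ± 222 CPM (-1.25). The Pfkfb3 call was lost when any fed library or fasted library 26, 28 or 29 was left out (adjusted p 0.0618 to 0.119). Tpi1 (-0.78), Pkm (-0.56), Eno3 (-0.54), Aldoa (-0.47), Gapdh (-0.46) and Ldha (-0.45) fell by less. Fbp2, the gluconeogenic phosphatase of muscle (1.52), Ldhb, the lactate dehydrogenase of oxidative fibers (1.00), and Pfkfb4 (0.72) rose. The insulin-regulated transporter Slc2a4 was at 1077 ± 96.3 CPM fed and 968 ± 92.0 CPM fasted (adjusted p = 0.248), and Hk2 at 477 ± 31.8 and 518 ± 37.6 (adjusted p = 0.353). At pyruvate dehydrogenase, the phosphatase Pdp1 of active muscle fell (-0.83) and Pdp2, its starvation-sensitive relative, rose (1.85), while the subunits Pdha1 (0.03) and Dlat (-0.06) did not pass (adjusted p = 0.878 and 0.707).

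Glycogen genes gave 7 rises and 4 falls of 18. Ppp1r3c, which brings phosphatase to glycogen, rose from 573 ± 60.9 to 1791 ± 589 CPM (1.64, adjusted p = 4.43e-06) and Ugp2, which makes UDP-glucose, from 492 ± 44.6 to 1263 ± 547 CPM (1.36). Phkg1, the catalytic subunit of phosphorylase kinase (-1.05), and Pgm1 (-0.96) fell. Pygm, the glycogen phosphorylase of muscle and one of the fiber markers used to check the tissue, held 0.0729 CPM fed and 0.0733 CPM fasted on average, a level at which it was not interpreted, and the cause was not tested. Of the AMPK subunits, Prkag3, found in white muscle, was at 447, 380.1, 393 and 366 CPM fed and 66.2, 56.6, 56.0 and 73.7 CPM fasted (-2.65, SE 0.183, adjusted p = 1.04e-08), with the groups far apart, and the catalytic subunit Prkaa2 rose by 0.69.

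Genes of the respiratory chain fell more often than they rose, by small amounts, and the share that fell depended on a correction for gene build. Of 76 nuclear subunits of oxidative phosphorylation 22 fell and 2 rose, against 18.9% falling among all genes tested (28.9% here), with a median of -0.19. Ndufb7 (-0.71), Ndufb8 (-0.69) and Atp5o (-0.56) led the falls and Uqcrc2 (0.47) and Atp5l (0.39) were the rises. With counts corrected for GC content and exon length, 14 of these subunits fell in place of 22 (18.4%, near the 17.8% of all genes tested that fell after that correction). Mitochondrial ribosomal proteins fell in 20 of 76 and rose in 6 (median -0.24), a share of 26.3%, and 16 fell after the correction (21.1%). In the tricarboxylic acid cycle Idh2 (0.81) and Dld (0.47) rose, Sdhc fell (-0.36), and the other 19 of 22 did not pass. Of 15 mitochondrially encoded genes, mt-Co3 (1.30) and mt-Rnr1 (0.78) rose, a share of 13.3% against 19.0% of all genes tested, and none fell. Without fasted library 27 mt-Co3 stood at 0.58 and did not pass (adjusted p = 0.223). The mt-Rnr1 call was lost when any fed library or fasted library 26 or 29 was left out (adjusted p 0.066 to 0.132). Of the regulators of mitochondria, Ppargc1a (PGC-1α) rose from 45.9 ± 4.64 to 68.9 ± 7.99 CPM (0.58, adjusted p = 0.00316) and Ppargc1b (PGC-1β) fell from 18.5 ± 2.33 to 7.4 ± 1.22 CPM (-1.31, adjusted p = 0.000148). Ppara (1.89), Ppard (0.90) and the co-repressor Nrip1 (1.86) rose, and Esrra (-0.65) and Rxrg (-1.11) fell. Gdap1, a fission factor of the outer membrane, fell by 1.95 (adjusted p = 4.94e-07), while Mfn1, Mfn2 and Opa1, which fuse mitochondria, had adjusted p of 0.0618, 0.733 and 0.49.

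**Figure D3:**
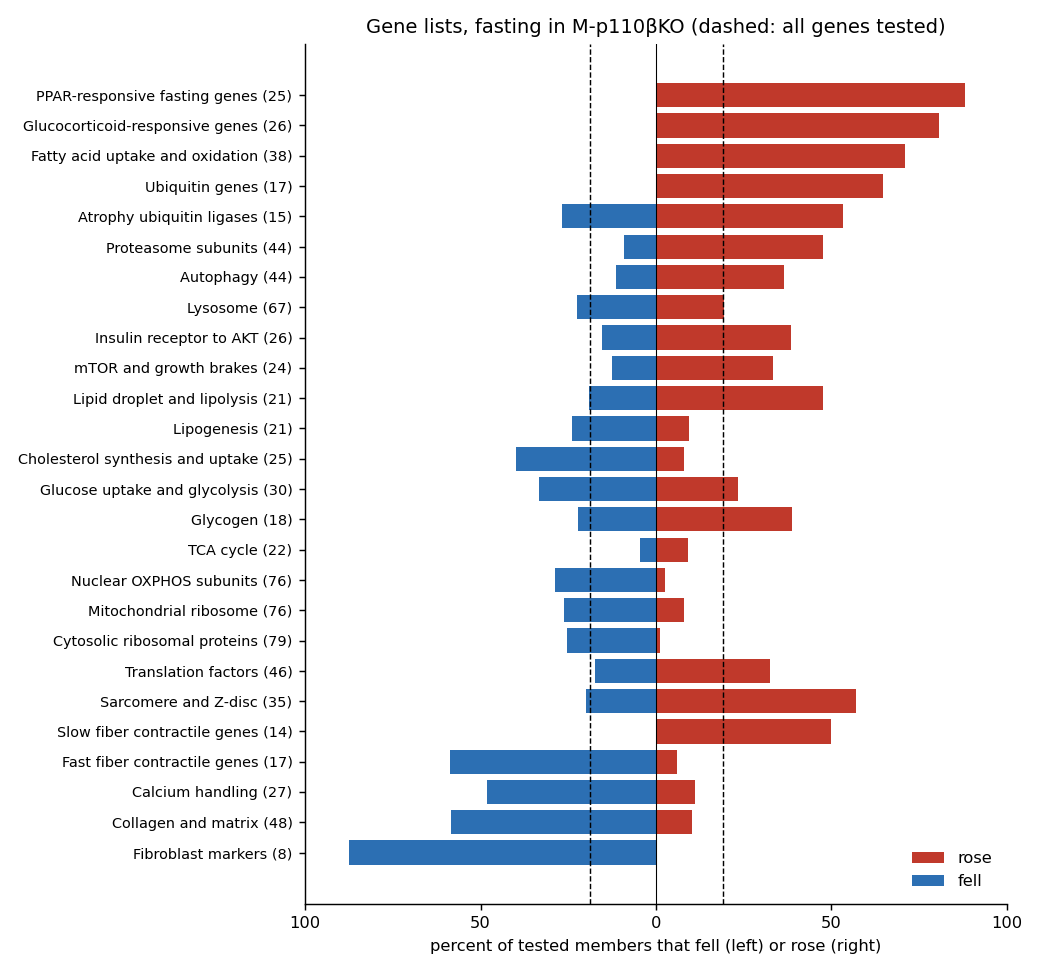
Share of tested members that rose (red, to the right) or fell (blue, to the left) on fasting in M-p110βKO for 26 gene lists, with the number tested beside each name, and dashed lines at 19.0% and 18.9% for all genes tested. PPAR-responsive (88.0% rose), glucocorticoid-responsive (80.8%) and fatty acid oxidation genes (71.1%) reach farthest right, and fibroblast markers (87.5% fell), fast fiber (58.8%) and collagen and matrix genes (58.3%) far left.

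The parts of the translation machinery gave different counts. Cytosolic ribosomal proteins fell in 20 of 79 and rose in 1 (median -0.19), a share of 25.3% against the background of 18.9%. It dropped to 9 falls (11.4%) when GC content and exon length were corrected for, and to 12 in a fit of all 29 libraries. Many ribosomal protein genes have processed copies in the genome, among which reads can be lost. Rpl3l, the muscle form of Rpl3, fell by 0.71 (adjusted p = 0.000101). Of 46 translation factors 15 rose and 8 fell, with Eif3a (1.00) and Eif4a2 (0.84) among the rises and Eef1g (-0.54), Eif5a (-0.49) and Eef1a2, the muscle elongation factor (-0.42), among the falls. Ribosome biogenesis genes rose in 10 of 31, led by Ddx21 (1.11) and Gnl3 (1.01). In polyamine synthesis, Odc1 rose (1.28) and Amd1, the next committed enzyme, fell from 1004 ± 81.8 to 351 ± 90.6 CPM (-1.52, adjusted p = 2.52e-06), together with its copy Amd2 (-1.67), whose reads cannot be fully separated from it.

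Among genes of amino acid use, the largest rises were in glutamine synthesis and in transporters. Glul, glutamine synthetase, was at 146, 192, 145 and 192 CPM fed and 987, 222, 519 and 924 CPM fasted (1.97, SE 0.328, adjusted p = 0.000135), with the groups apart. Prodh, which starts proline breakdown, rose by 1.40, and the transporters Slc7a8 (2.11), Slc7a2 (1.78), Slc7a5 (1.32) and Slc38a2 (0.87) rose. The branched-chain enzymes Bcat2 (-0.13), Bckdha (0.21) and Bckdhb (0.20) did not pass (adjusted p = 0.68, 0.476 and 0.18). Of 32 genes on the list of amino acid breakdown 11 rose and 1 fell. The fall was that of Asns, asparagine synthetase, which is an enzyme of synthesis (-1.03). The Asns call was lost without fasted library 26, 28 or 29 or fed library 19 or 20 (adjusted p 0.0782 to 0.105). Genes under ATF4 in amino acid stress gave 6 rises and 2 falls of 23, with Atf4 itself at 0.57 (adjusted p = 0.000671). In the chaperone list, 13 rose and 6 fell of 36. Hspb7, a small chaperone of the sarcomere, rose from 77.8 ± 35.0 to 420.1 ± 86.2 CPM (2.43, adjusted p = 1.82e-06).

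Glucocorticoid-responsive genes had a higher median than any other pathway list. Of 26 tested 21 rose and 0 fell (median 1.30). Fkbp5, a co-chaperone of the receptor, was at 24.7, 33.0, 20.7 and 39.4 CPM fed and 307, 131, 242 and 314 CPM fasted (3.07, SE 0.311, adjusted p = 7.77e-07). Cdkn1a (p21), a cell cycle inhibitor, was at 14.7, 19.2, 13.7 and 19.0 CPM fed and 129.7, 42.0, 118 and 132 CPM fasted (2.66, SE 0.295, adjusted p = 2.13e-06). Neither gene overlapped between the states. Zbtb16 (2.36), Cebpd (2.21), Klf15 (1.46) and Hif3a (3.93) rose, while Sgk1 (-0.04, adjusted p = 0.89), Dusp1 (-0.19, adjusted p = 0.397) and the receptor Nr3c1 (0.27, adjusted p = 0.0589) did not pass. In the clock, Nr1d1 (Rev-erbα) was at 61.1, 62.3, 57.0 and 63.7 CPM fed and 20.5, 26.3, 21.3 and 20.9 CPM fasted (-1.45, SE 0.101, adjusted p = 1.1e-08), with lower values in every fasted library. Dbp (-1.22), Bhlhe41 (-1.91) and Bhlhe40 (-1.05) fell, Per2 (1.37), Per1 (0.72), Cry2 (1.32), Rora (1.15) and Nfil3 (1.55) rose, and Arntl (-0.24, adjusted p = 0.256) and Clock (-0.25, adjusted p = 0.0849) did not pass. The hour at which muscle was taken is not given in the sources used here.

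Immediate early genes rose in 10 of 23 and fell in 2. Nr4a3, an orphan nuclear receptor, rose from 6.31 ± 1.93 to 44.1 ± 2.75 CPM (2.80, adjusted p = 6.98e-05), and Maff by 2.57, while Nr4a1 did not pass (0.42, adjusted p = 0.0793). Among antioxidant genes (11 rose and 6 fell of 30), Srxn1, sulfiredoxin, was at 21.5, 18.3, 20.2 and 19.3 CPM fed and 80.0, 106, 97.7 and 88.2 CPM fasted (2.23, SE 0.116, adjusted p = 2.5e-10). Cat, catalase, rose from 48.2 ± 4.23 to 155 ± 24.8 CPM (1.69), and with it Nfe2l2 (1.26) and Gclm (1.20), the regulator and an enzyme of glutathione supply. Gpx1 (-0.83), Gpx4 (-0.52) and Prdx5 (-0.43) fell.

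The contractile apparatus of fast fibers fell in part. Of 17 fast fiber genes 10 fell and 1 rose (median -0.41), and 6 fell when mitochondrially encoded genes and the 20 most abundant genes were left out, since some of them are on this list. Casq1, the calcium store of fast fibers, was at 3663, 3904, 3494 and 3201 CPM fed and 912, 1751, 1154 and 1026 CPM fasted (-1.56, SE 0.179, adjusted p = 3.24e-06). Pvalb, which buffers calcium, was at 10560.5, 10357, 11475 and 12485 CPM fed and 4700.2, 5854, 5107 and 4900.0 CPM fasted (-1.13, adjusted p = 4.52e-06). Each was lower in all fasted libraries. Mylpf (-1.05), Tpm1 (-0.98) and Tnni2 (-0.68) fell, whereas the myosin heavy chains Myh4 (-0.01, adjusted p = 0.934) and Myh1 (0.31, adjusted p = 0.251) did not pass and Myh2, of oxidative fast fibers, rose by 0.95 (adjusted p = 0.0124). Slow fiber genes rose in 7 of 14 and fell in 0, with Csrp3, Ankrd2 and Myoz2 (1.95) in front, while the defining slow genes Myh7 (0.92, adjusted p = 0.503) and Tnnt1 (0.90, adjusted p = 0.117) did not pass. Sarcomere and Z-disc genes rose in 20 of 35 and fell in 7, with Lmod2 (2.79), Flnc (1.33) and Myot (1.00) among the rises and Smtnl2 (-1.07) and Synpo2l (-0.97) among the falls.

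Calcium handling fell in 13 of 27 genes and rose in 3. Jph2, which ties the sarcoplasmic reticulum to the T-tubule (-1.57), Sypl2 (-1.31), Cacnb1 (-1.05) and Camk2a (-1.02) fell with Casq1 and Pvalb. Sln (sarcolipin, 3.84) and Pln (phospholamban, 1.62), inhibitors of the calcium pump, rose from low levels. At the neuromuscular junction the receptor subunit Chrna1 (1.73) and the kinase Musk (1.59) rose and Ache (-0.87) and Lrp4 (-1.01) fell, with 6 rises and 6 falls of 20. Chrna1 was at 6.56, 8.08, 4.33 and 8.07 CPM fed and 11.4, 8.53, 55.9 and 13.6 CPM fasted, where library 28 held the highest value, and its change without that library was 0.73. Among myogenic factors Myod1 fell from 21.7 ± 2.99 to 7.73 ± 1.11 CPM (-1.50, adjusted p = 7.49e-07), and Myf6 (0.74) and Myog (1.40) rose.

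Of all lists, that of matrix genes had the largest number of falls, though not the largest share. Of 48 tested 28 fell (58.3%) and 5 rose (median -0.76). Col3a1 was at 138, 102, 134 and 105 CPM fed and 28.5, 31.6, 40.1 and 31.6 CPM fasted (-1.86, SE 0.135, adjusted p = 1.52e-08). Col1a1 was at 60.6, 44.0, 62.5 and 45.7 CPM fed and 12.7, 12.4, 12.6 and 11.6 CPM fasted (-2.11, SE 0.243, adjusted p = 3.27e-06). In both collagens the fasted libraries were below the fed ones. The collagen VI genes Col6a1 (-1.55), Col6a2 (-1.84) and Col6a3 (-1.48), the chaperone Serpinh1 (-1.22), the protease Mmp2 (-1.32) and the small proteoglycans Lum (-2.01) and Dcn (-0.63) fell as well. Timp3 (0.99), Lox (1.01), Plod2 (0.81), Eln (0.88) and P4hb (0.26) were the rises.

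These genes are made largely by cells other than fibers, which keep p110β in this model. In whole muscle, fewer cells of a type and less RNA per cell cannot be told apart. Fibroblast markers fell in 7 of 8, with a summed level of 539–886 CPM fed and 261–418 CPM fasted, and Pdgfra, which defines the matrix-forming cells, at -0.72 (adjusted p = 0.0217). Macrophage markers fell in 6 of 6 tested of 9, at a summed level of 36.2–63.4 CPM fed and 23.0–26.2 CPM fasted, with Csf1r, the growth factor receptor of these cells, at -1.63 (adjusted p = 0.000825) and Cd163 at -1.07. In floxed controls (3 against 3) 1 of the fibroblast and 0 of the macrophage markers fell, with medians of -0.18 and -0.03. The medians in M-p110βKO were -0.92 and -1.27. Macrophage markers summed to 27.5–43.9 CPM fed and 30.5–38.1 CPM fasted in those controls. No member of either list passed the test of the difference, which 0.106% of all genes tested passed, so no conclusion is drawn from that. In M-p110βKO endothelial markers were mixed (1 rise and 2 falls of 9, summed 703–737 CPM fed and 523–892 CPM fasted). Pecam1 lay at 59.8 ± 4.52 and 59.9 ± 12.1 CPM (adjusted p = 1), Kdr, the main VEGF receptor, fell by 1.08, and Flt1, its decoy partner, rose by 0.90. Apln (apelin) fell by 2.99 and its receptor Aplnr by 1.30. Of interferon-responsive genes 11 of 27 fell and 0 rose, with Bst2 (-1.41) and Usp18 (-1.04) in front.

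Markers of the other cell types gave the following counts and levels. Adipocyte markers summed to 4272–4927 CPM fed and 2012–3696 CPM fasted, most of it from Car3 and Fabp4, which fibers or vessels also make, and 0 rose and 0 fell of 5 tested. Smooth muscle and pericyte markers gave 1 rise and 1 fall of 6 (summed 558–577 CPM fed and 516–596 CPM fasted), Schwann cell markers 1 rise of 4 (summed 54.5–64.4 CPM fed and 43.9–117 CPM fasted), and satellite cell markers 2 rises and 2 falls of 5 (summed 43.4–47.7 CPM fed and 44.1–48.3 CPM fasted), with Pax7 at -0.99 (adjusted p = 0.0235). Red blood cell markers summed to 21.6–30.4 CPM fed and 9.14–30.9 CPM fasted with no member past the test. No T cell or neutrophil marker had enough reads to be tested (summed 0.137–1.08 CPM fed and 0.159–0.494 CPM fasted), and Fmod was the tendon marker that fell (summed 11.1–20.1 CPM fed and 1.44–5.81 CPM fasted). Fiber markers were high in every library (summed 145688–156549 CPM fed and 124249–144730.3 CPM fasted), with 5 falls and 1 rise of 8. The part of cell content in the matrix falls was not tested.

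Genes that rose and fell differed in build. The median exon length was 5806 bases for rises, 3779 for falls and 4470 for all genes tested, and the median GC content 47.1%, 52.8% and 49.6%. With counts corrected for both, 2121 genes rose and 2177 fell. The part of length and GC content in the calls was not tested.

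Floxed controls of the p110β line gave the same test without loss of p110β. On fasting 1780 genes rose and 1517 fell in them (3 against 3 mice, 14.5% and 12.4% of genes tested), a smaller comparison than the 4 against 4 of M-p110βKO. Genes that rose in both numbered 1272, which is 54.6% of the M-p110βKO rises and 71.5% of the control rises, and genes that fell in both numbered 1040, 44.9% and 68.6% of each list. Calls in opposite directions were found for 9 genes. Of the 2322 genes called in M-p110βKO and not in controls, 1976 had the same sign in controls. Across the 12249 genes, which are not independent replicates and share 1 fit, the log2 fold changes of both genotypes had a Pearson r of 0.71. Leaving out fasted controls 23 and 24 leaves 1 fasted control. The counts of that fit are listed with the other alternatives below, and no conclusion is drawn from them.

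The fasting effect itself differed between M-p110βKO and controls in 13 genes, 5 with a higher and 8 with a lower change in M-p110βKO (0.0408% and 0.0653% of genes tested), and 1563 genes had an unadjusted p under 0.05. This count rests on few libraries. It ran from 0 to 141 as single libraries were left out, and was 0 without fasted M-p110βKO 26 or 28, fed M-p110βKO 19, fasted control 24 or fed control 17. It was 1 without fasted control 23, 2 without fed control 18, 4 to 6 without fed M-p110βKO 21 or 22 or fasted M-p110βKO 29, 44 without fed control 16, 63 without fasted M-p110βKO 27, 141 without fasted control 25 and 0 with limma-voom. Srxn1 rose in both, by 2.23 and by 3.37 (difference -1.14, SE 0.176, adjusted p = 0.0218). Cyp26b1, which degrades retinoic acid, was at 1.25, 0.865, 0.812 and 0.137 CPM fed and 9.62, 2.84, 5.08 and 9.41 CPM fasted in M-p110βKO. In controls it was at 3.17, 6.6 and 6.97 and 3.8, 4.1 and 3.34 CPM, so the rise was seen in M-p110βKO and the control groups overlapped (difference 3.67, SE 0.63, adjusted p = 0.0385). Esrrg, an estrogen-related receptor of oxidative metabolism, changed by 0.52 in M-p110βKO and by -0.77 in controls (difference 1.30, adjusted p = 0.0385). Dnajb1 (-1.52), Lrp1 (-1.38), Aoc3 (-1.66), Kif5c (-2.83) and Thbs2 (-2.25) had lower changes, and Gm45221 (2.95), Eif2s3y, a Y-linked translation factor (1.02), and Gm13340 (1.06) higher ones. Scd1, a desaturase that fat cells make in quantity, was at 23.4, 6.35, 28.6 and 6.43 CPM fed and 7.21, 2.84, 5.48 and 4.78 CPM fasted in M-p110βKO. In controls it was at 7.79, 9.47 and 9.61 CPM fed and 211, 189.5 and 7.71 CPM fasted, and the high values were those of fasted controls 23 and 24, which also held the most Adipoq (difference -5.62, SE 1.05, adjusted p = 0.0407). Without these controls 1 fasted control was left, too few to judge which genes would still be called. All 13 genes kept the sign of their difference in that fit. The part of fat cell RNA in the difference was not tested.

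**Figure D4:**
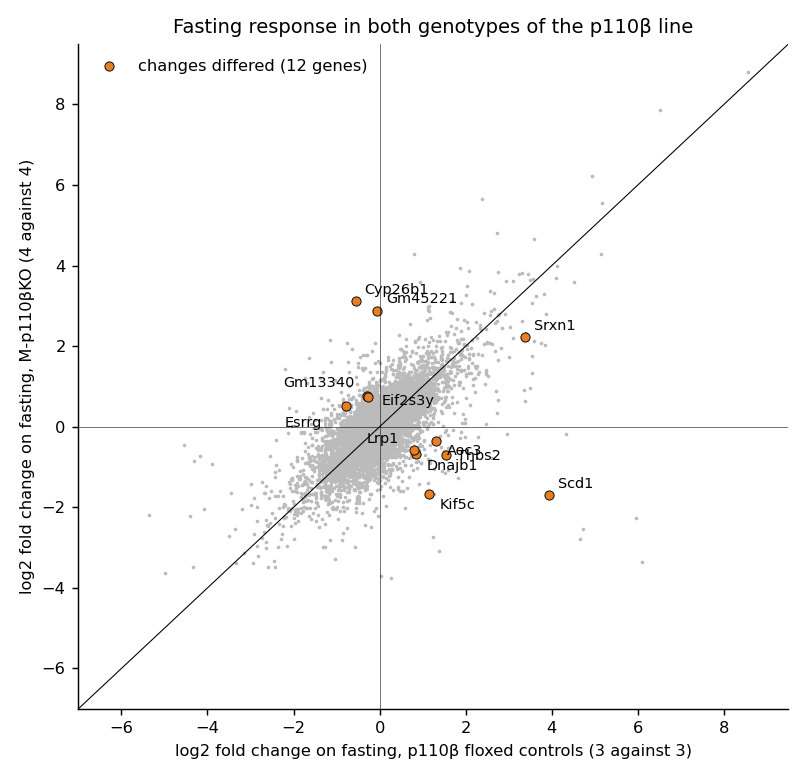
Log2 fold change on fasting in M-p110βKO (4 against 4, vertical axis) against that in floxed controls (3 against 3, horizontal axis), 1 grey point per gene tested (12249 genes) with the line of equal change. Of the 13 genes whose changes differed, 12 are in orange, with Cyp26b1 (3.11 and -0.56) above the line and Scd1 (-1.69 and 3.93) below it.

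For the leading gene groups, medians of both genotypes stand side by side here. For the PPAR-responsive genes the median was 1.14 in M-p110βKO and 1.11 in controls, for the glucocorticoid-responsive genes 1.30 and 1.24, and for the ubiquitin genes 0.55 and 0.44. None of the members of these 3 lists was among the 13 genes, which are 0.106% of genes tested. At that share lists of this size would rarely hold any, so no conclusion is drawn from it. The median of matrix genes was -0.76 in M-p110βKO and -0.13 in controls, with 28 and 13 falls, and that of autophagy genes 0.11 and 0.43, with 16 and 21 rises. No gene of either list passed the test of the difference, with the same limit. Col1a1 changed by -0.56 in controls (difference -1.55, adjusted p = 0.143) and Col3a1 by -1.10 (difference -0.76, adjusted p = 0.19), and fibroblast markers summed to 543–633 CPM fed and 459–741 CPM fasted in controls. The fasted control values include libraries 23 and 24, which held more adipocyte transcripts. The part of those libraries in the control medians was not tested.

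Against M-p110αKO, in a fit of all 29 libraries, the fasting effect of M-p110βKO was higher in 718 and lower in 645 genes (5.63% and 5.05% of 12760 tested), and with upper-quartile factors in 588 and 810. Without fasted M-p110αKO library 14 the total was 812 in place of 1363. This difference also holds that between the 2 mouse lines. The difference between the floxed controls of the lines was not tested, and for the genes named their changes are given beside those of the knockouts. In M-p110αKO 1441 genes rose and 1232 fell on fasting (11.6% and 9.91% of 12433 tested). Of the genes tested in both lines, the 812 that rose in both knockouts were 35.2% of the M-p110βKO rises and 57.3% of the M-p110αKO rises. The 607 that fell in both were 26.7% and 49.7%, and 100 had opposite calls.

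Pdk4 rose by 3.61 in M-p110βKO and by 1.14 in M-p110αKO, a difference of 2.48 (SE 0.374, adjusted p = 0.000109), and by 2.94 and 1.78 in the floxed controls of the p110β and p110α lines. Trim63 rose by 3.07 and 1.30 in the knockouts (difference 1.77, adjusted p = 0.00208) and by 3.55 and 2.78 in the controls. For Fbxo32 the changes were 2.44 and 2.21 (difference 0.23, adjusted p = 0.557), with 2.33 and 2.89 in the controls. Mt2 rose by 4.67 in M-p110βKO and changed by -0.42 in M-p110αKO (difference 5.10, adjusted p = 5.99e-06), with 3.58 and 0.42 in the controls. Nr1d1 fell in M-p110βKO (-1.45) and changed by 0.77 in M-p110αKO (difference -2.22, adjusted p = 5.37e-08), and by -1.81 and 0.38 in the controls. Fam117b (2.01 and -1.32, difference 3.33, adjusted p = 6.67e-09) had the lowest adjusted p, and changed by 0.61 and 0.17 in the controls. The rest of the 10 lowest were Commd3 (1.35) and Rnf144b (1.83), with higher changes in M-p110βKO, and Aldoart1 (-2.82), Gm12286 (-3.62), Thra, a thyroid hormone receptor (-1.10), Col5a3 (-1.97) and Mmp14 (-2.04), with lower ones. In the floxed controls of the p110β and p110α lines Commd3 changed by -0.24 and -0.21, Rnf144b by 0.74 and -0.22, Aldoart1 by -0.33 and -0.55, Gm12286 by -1.15 and -0.47, Thra by -0.46 and -0.26, Col5a3 by -0.76 and 0.43, and Mmp14 by -0.32 and 0.85. Aldoart1 is a copy of Aldoa and may take reads from it. By list, 16 of 26 glucocorticoid-responsive and 12 of 25 PPAR-responsive genes tested had a higher fasting change in M-p110βKO and none a lower one, and 20 of 48 matrix genes had a lower and 1 a higher change. The same count between the floxed controls of the lines was not made.

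**Figure D5:**
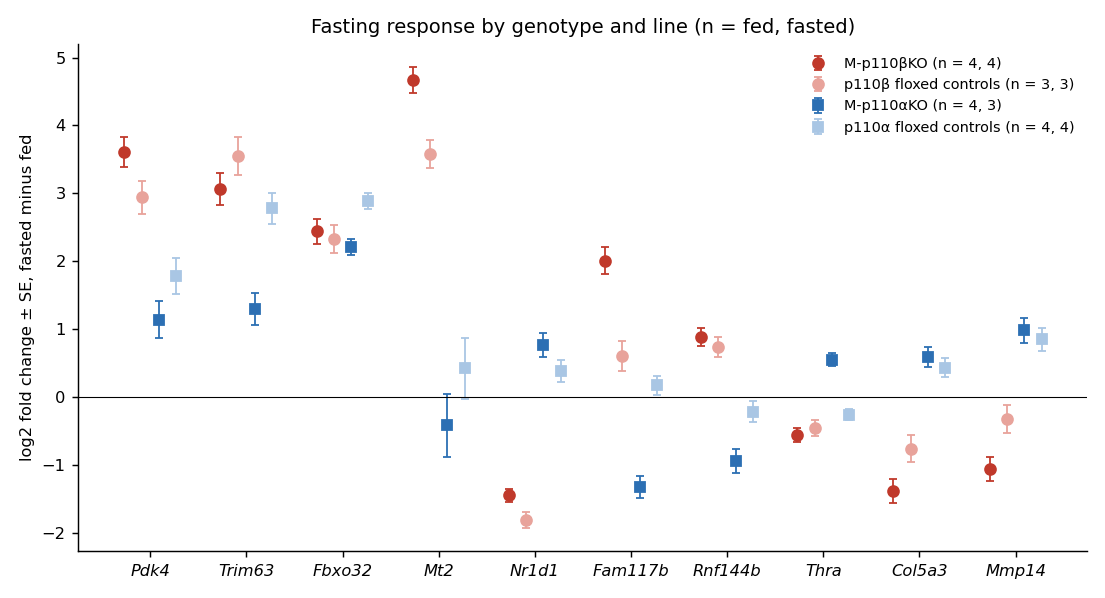
Log2 fold change on fasting ± SE for 10 genes in M-p110βKO (4 against 4), p110β floxed controls (3 against 3), M-p110αKO (3 fasted against 4 fed) and p110α floxed controls (4 against 4), with each line fitted on its own. Nr1d1 lies below 0 in both groups of the p110β line (-1.45 and -1.81) and at 0.77 in M-p110αKO, and Pdk4 is highest in M-p110βKO (3.61).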

How the data were processed

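RNA from TA muscle of 29 mice was sequenced, and the authors deposited 1 table of raw read counts per gene and library, made with STAR and Subread featureCounts against GRCm38 (versions and strand setting not given in the sources used here). Without a stated strand setting, overlapping and antisense genes may share reads. Symbols came from GENCODE M21 for 47310 of 48023 gene IDs. Every column of the table was mapped to a sample (0 unmapped).

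The 14 libraries of the p110β line were fitted together in edgeR 4.0.16 (R 4.3.3), with TMM scaling, filterByExpr (minimum count 10, total 15) and the quasi-likelihood F test. The difference from M-p110αKO came from a fit of all 29 libraries, and changes within the p110α line from a fit of that line. CPM are counts per 1000000 assigned reads after TMM scaling. The SE was the log2 fold change over the square root of F, and p-values were adjusted by Benjamini-Hochberg over all genes tested. The fit of the p110β line was tested on simulated data for the fasting contrast of M-p110βKO, and the other fits and contrasts were not. Alternatives were upper-quartile and DESeq2 1.42.0 size factors, other filters, the DESeq2 Wald test, limma-voom (limma 3.58.1), fits of fewer or more libraries, a test against a fold of 1.5, a spline on GC content and exon length, and leaving out libraries.

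The comparison, the 61 gene lists and the tests were chosen with earlier results of these data known. The naming rule took the 15 largest rises and falls (mean log2 CPM of at least 1, groups not overlapping), the 8 largest rises and falls of mean CPM, up to 4 list members of lowest adjusted p and up to 2 against the list's majority, Pik3cb, Pik3ca, cell type markers and up to 10 genes of lowest adjusted p in each difference of fasting effects. Some genes that the rule takes are not reported here. Of the 298 genes named with a change, 111 lie outside this rule and were chosen after their values were seen. Reads are not independent molecules. All pairs of libraries within the M-p110βKO groups differed by more than sampling noise, though not evenly. By a chi-square of the counts per degree of freedom, the closest pairs were fed 19 and 21 (3.92) and fasted 26 and 29 (4.22). Every other pair was at 7.69 or above. The cause was not tested.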

Additional observations from a re-analysis of the deposited data

Results flagged for a closer look

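Among the genes named above, 36 of 596 groups of 4 M-p110βKO libraries held 1 library far from the other 3, where chance flags about 1 in 20 groups. Fasted library 27 was that library in 14 of them. It was above the other 3 for Ky (86.9 CPM, the others 26.2–35.3), Fras1 (1.85), Fmod (3.58), Fundc1 (38.4), Irs2 (154 CPM, the others 80.0–91.4), Akt1 (128 CPM, the others 64.1–68.2), Ugp2 (2079 CPM, the others 917–1030.2), Phkg1 (281), mt-Co3 (567 CPM, the others 144–174), Nr1d1 (26.3) and Camk2a (359.8). It was below them for Lpl (878 CPM, the others 1866–1965), Prodh (13.5) and Cdkn1a (42.0 CPM, the others 118–132). Fasted library 28 was above the others for Plcd4 (27.4 CPM), Pex11a (22.3) and Chrna1 (55.9 CPM, the others 8.53–13.6), and fasted library 26 was below them for Mul1 (26.5) and Pax7 (0.641).

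Among fed libraries, library 22 was above the others for Lcn2 (0.684 CPM), Sqstm1 (490.0), Eif4ebp1 (18.7), Bckdha (18.6), Bckdhb (25.7), Atf4 (195) and Tpm1 (28685) and below them for Ppard (15.2). Library 20 was above for Hif3a (2.31) and below for Ucp3 (143), Idh2 (165) and Sdhc (204), library 19 below for Dlat (155), mt-Co3 (62.0), Sln (0.0) and Gm13340 (25.1), and library 21 above for Rnf144b (47.4).

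The test of the difference between fasting effects set 13 genes apart from floxed controls. In log2 fold change, M-p110βKO minus controls, the 12 named above were Scd1 (-5.62), Kif5c (-2.83), Thbs2 (-2.25), Aoc3 (-1.66), Dnajb1 (-1.52), Lrp1 (-1.38), Srxn1 (-1.14), Eif2s3y (1.02), Gm13340 (1.06), Esrrg (1.30), Gm45221 (2.95) and Cyp26b1 (3.67). Against M-p110αKO, a difference that also holds that between the mouse lines, the named genes were Mt2 (5.10), Fam117b (3.33), Pdk4 (2.48), Rnf144b (1.83), Trim63 (1.77), Commd3 (1.35), Thra (-1.10), Col5a3 (-1.97), Mmp14 (-2.04), Nr1d1 (-2.22), Aldoart1 (-2.82) and Gm12286 (-3.62).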

How the results depend on the processing

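No paired analysis was possible because replicate numbers in the titles run through the whole series and the groups share none. In M-p110βKO the count of 4643 genes stayed within 1.5 times under every alternative but the test against a fold of 1.5, which is stricter by construction (945 genes, 488 up and 457 down). Without single libraries it ran from 3851 to 4551 (rises 1962 to 2410, falls 1782 to 2224). Of 5085 alternative values of 255 called genes, 4872 kept direction and call, 213 lost the call (95 of them in the fold test) and 0 changed sign. Leaving out 1 library ended the calls of 25 named genes, with a highest adjusted p of 0.0515 to 0.223: Asns, Atg12, Atp5l, Cd163, Ctss, Dcn, Fads2, Fst, Fundc1, G0s2, Gpx4, Hilpda, Ldha, Mstn, Ndufb7, P4hb, Pax7, Pdgfra, Pfkfb3, Pik3r2, Prdx5, Stub1, Tfeb, mt-Co3 and mt-Rnr1. Of 1342 list counts 1173 stayed within 1.5 times.

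The difference from controls was 40 genes (15 higher, 25 lower) with DESeq2, 4 (2 and 2) with the GC content and length correction, 6 (4 and 2) with upper-quartile factors, 377 (173 and 204) without a filter, 0 with limma-voom (0 and 0) and 0 to 141 without single libraries (0 to 60 and 0 to 81). Without fasted controls 23 and 24, an alternative chosen after seeing the data, it was 7 (0 and 7), and controls had 2095 calls with 841 falls. The difference from M-p110αKO was 812 to 1364 without single libraries (435 to 725 and 377 to 653). The causes were not tested.

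In the last 150 bases of the promoter windows, shorter by construction, the FoxO motif was in 1.26% of rises, 0.609% of falls, 1.02% of genes that did not pass and 0.987% of all, the E-box in 6.88%, 5.13%, 6.6% and 6.37%, and the cyclic AMP element in 2.44%, 2.22%, 2.49% and 2.42%.

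Some genes that had not passed changed sign near 0, and none passed there. With the GC content and length correction Atg3 (-0.05), Opa1 (-0.08), Pdha1 (-0.05), Pecam1 (-0.02), Pik3ca (-0.08), Traf6 (-0.04) and Myh4 (0.03) did. With upper-quartile factors Akt2 (-0.04), Foxo4 (-0.02), Mfn2 (-0.02), Pdha1 (-0.04) and Pecam1 (-0.06) did, as did Pecam1 with limma-voom (-0.02) and Myh4 with a 1 CPM filter (0.01), no filter (0.01) or the 8 libraries alone (0.00). Without single libraries the ranges were -0.19 to 0.01 for Acsl4, -0.02 to 0.40 for Akt1, -0.04 to 0.09 for Akt2, -0.03 to 0.14 for Atg3, -0.25 to 0.10 for Bcat2, -0.17 to 0.04 for Dlat, -0.02 to 0.13 for Foxo4, -0.03 to 0.29 for Irs1, -0.01 to 0.13 for Mfn2, -0.09 to 0.07 for Myh4, -0.02 to 0.11 for Pdha1, -0.07 to 0.13 for Pecam1, -0.17 to 0.03 for Pex11a and -0.09 to 0.04 for Sgk1.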
